A study of Homo sapiens with 2 samples.

Results

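Aminoacyl-tRNA synthetases, the enzymes that load each tRNA with its amino acid for protein synthesis, were examined as a family. The 35 members were taken by gene symbol from the 46427 gene rows of the deposited table, and every symbol matched 1 row. By the naming of the genes, 19 encode cytosolic enzymes (names ending in 1, with FARSA and FARSB) and 16 encode mitochondrial enzymes (names ending in 2). GARS1 and KARS1, counted with the cytosolic group, are each known to supply the glycine or lysine enzyme of both compartments from a single gene. Messenger RNA was sequenced from cells labelled MiaPaca2, a human pancreatic adenocarcinoma line, that had received either vehicle or iMQT_020 for 48 hours. The series describes iMQT_020 as blocking the mitochondrial glutamine transporter. Each treatment was 1 library, so no value has a replicate to check it, and treatment and library cannot be told apart. CDKN2A, which MIA PaCa-2 is known to lack, was present at 278 TPM (vehicle) and 208 TPM (iMQT_020). MTAP, lost with it in that line, was at 33.7 and 26.2 TPM, and CDKN2B, of the same segment, at 8.04 and 13.5 TPM. CD44, abundant in that line, was at 0.0964 and 0.0209 TPM, so the identity of the cells is uncertain.

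Each synthetase recognises its amino acid and the matching tRNAs and joins them at the cost of ATP. Animal cells use separate sets of enzymes for the cytosol, where most proteins are made, and for mitochondria, where the few proteins of the mitochondrial genome are translated, although all synthetases are encoded in the nucleus. Mitochondria have no glutaminyl-tRNA synthetase of their own: EARS2 first charges the glutamine tRNA with glutamate, and an amidotransferase made of QRSL1, GATB and GATC then converts it with glutamine as the nitrogen donor. When amino acids run short, uncharged tRNAs activate the kinase GCN2, and the transcription factor ATF4 that follows is known to switch on many of the cytosolic synthetase genes.

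Estimated counts totalled 67095283 with vehicle and 59139157 with iMQT_020, and 14805 genes reached 50 counts in at least 1 library and are called measured here. All 35 synthetases were measured, with between 634 and 32703 counts, and 33 reached 1000 counts in at least 1 library. Of 8 marker genes of blood, endothelial, hepatic and pancreatic islet or acinar cells, 4 were at 0 in both libraries. The 8 summed to 1.19 TPM (vehicle) and 2.16 TPM (iMQT_020). KRT8 and KRT18 of epithelial cells were at 128 and 97.4 TPM with vehicle and at 92.3 and 77.5 TPM with iMQT_020. The ductal keratin KRT19 was at 0 counts in both. VIM of mesenchymal cells was at 403 TPM (vehicle) and 438 TPM (iMQT_020), and ANXA1 at 3.13 and 2.74 TPM.

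Synthetase mRNAs were abundant, the cytosolic ones far more so than the mitochondrial ones. TPM, which is scaled by transcript length and can be compared between genes, summed to 3470 over the cytosolic members in the vehicle library and to 3264 in the iMQT_020 library. The mitochondrial members summed to 806 and 753 TPM, so the cytosolic enzymes made up 81.2% of the combined level with vehicle and 81.3% with iMQT_020. TARS1, the threonine enzyme, led the cytosolic group at 336 TPM (vehicle) and 339 TPM (iMQT_020), followed by KARS1 at 302 TPM in both libraries. CARS1, the cysteine enzyme, was the lowest cytosolic member at 38.3 and 36.7 TPM, and 17 of the 19 were at 100 TPM or more in each library.

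Among the mitochondrial members IARS2, the isoleucine enzyme, stood alone at 252 TPM (vehicle) and 248 TPM (iMQT_020), and none of the other 15 reached 100 TPM. IARS2 by itself carried 31.3% of the summed mitochondrial level with vehicle and 32.9% with iMQT_020. PARS2 for proline was lowest at 11.4 and 11.0 TPM. The order of the 35 levels was nearly the same in both libraries (Spearman's rho 0.97 over the 35 genes, a description).

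**Figure D1:**
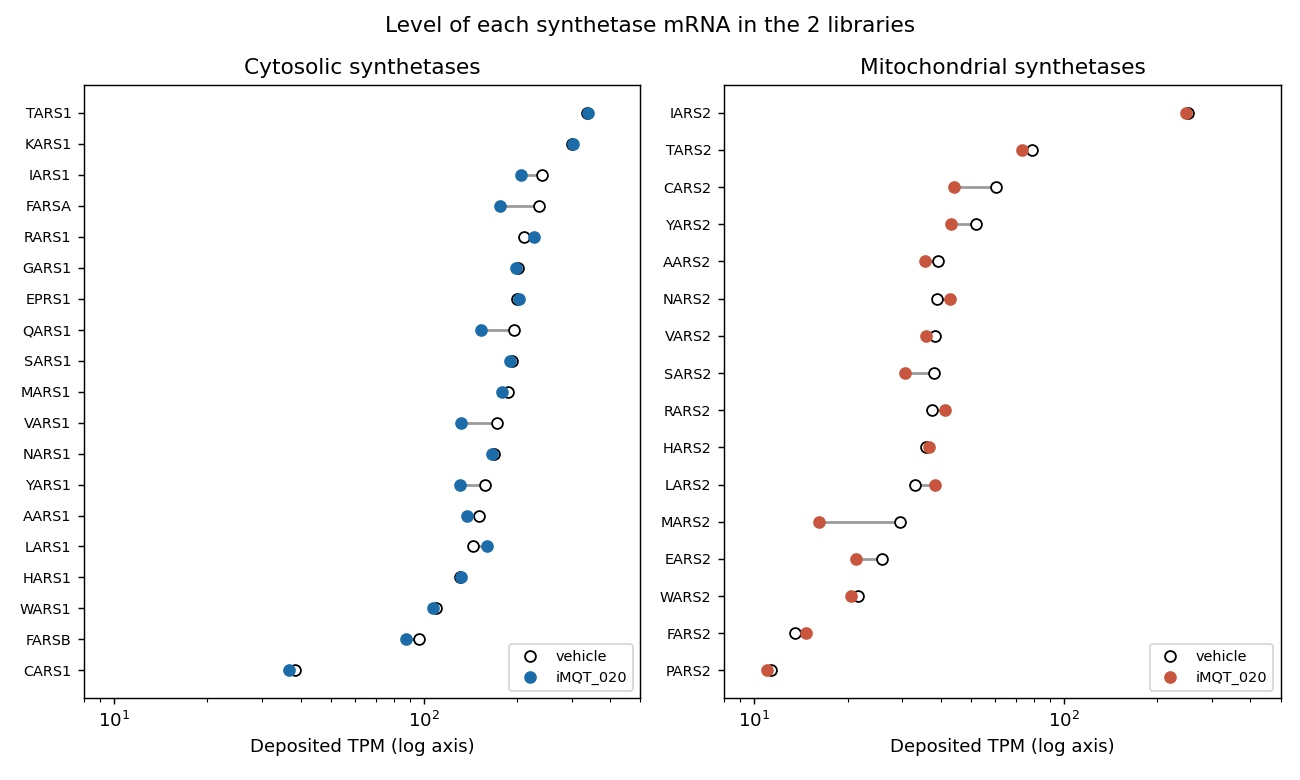
Deposited TPM of each synthetase on a log axis in the vehicle library (open circles) and the iMQT_020 library (filled circles), cytosolic enzymes on the left and mitochondrial enzymes on the right, 1 library each. Cytosolic levels lie mostly above 100 TPM, IARS2 is the only mitochondrial enzyme above it, and the widest gap between the circles belongs to MARS2.

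The difference between the libraries was expressed as the log2 ratio of scaled counts (CPM), iMQT_020 over vehicle, with an exact 95% interval that covers counting error only. With no replicates a rule of size stands in for a test: 2-fold in either direction, and for smaller differences a level at least 20% lower or at least 25% higher with iMQT_020, which are the same step on the log scale. None of the 35 was 2-fold apart, where 5.23% of all measured genes and 1.28% of genes with at least 1000 counts were.

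Most of the family nevertheless lay slightly below 0. The ratio was below 0 for 29 of the 35, against 52.7% of all measured genes and 50.7% of those with at least 1000 counts. Under the alternative processing described below, 12 of the 35 did not keep the sign of their ratio throughout. The median over the 35 was −0.10, beside −0.02 over all measured genes and −0.01 over those with at least 1000 counts. By the smaller step, 7 synthetases were at least 20% lower, against 21.8% of measured genes and 15.9% of genes with at least 1000 counts, a share of the family close to these backgrounds. The epithelial keratins KRT8 and KRT18, at −0.49 and −0.38, were also at least 20% lower, within the range of those members, and mesenchymal VIM was at 0.09. The part of these markers in the result was not tested. By contrast 0 synthetases were at least 25% higher, where 17.4% of measured genes and 14.1% of genes with at least 1000 counts were. The counting interval lay wholly below 0 for 26 members (41.7% of genes with at least 1000 counts), wholly above 0 for 3 (40.4% of those genes), and held 0 for 6.

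The cytosolic and the mitochondrial groups had similar medians, and apart from MARS2 their ranges were close. The cytosolic median was −0.08 (order-statistic interval over members, a description of their spread, −0.27 to −0.03), with 17 of 19 below 0 and a range from −0.47 to 0.10. The mitochondrial median was −0.13 (−0.35 to 0.01), with 12 of 16 below 0 and a range from −0.92 (MARS2) to 0.16, or from −0.44 (CARS2) without MARS2. The cytosolic group had 3 members at least 20% lower and the mitochondrial group 4, where 21.8% of all measured genes were. Of all measured genes, 52.7% were below 0. With 1 library per treatment, whether the groups differ could not be tested.

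**Figure D2:**
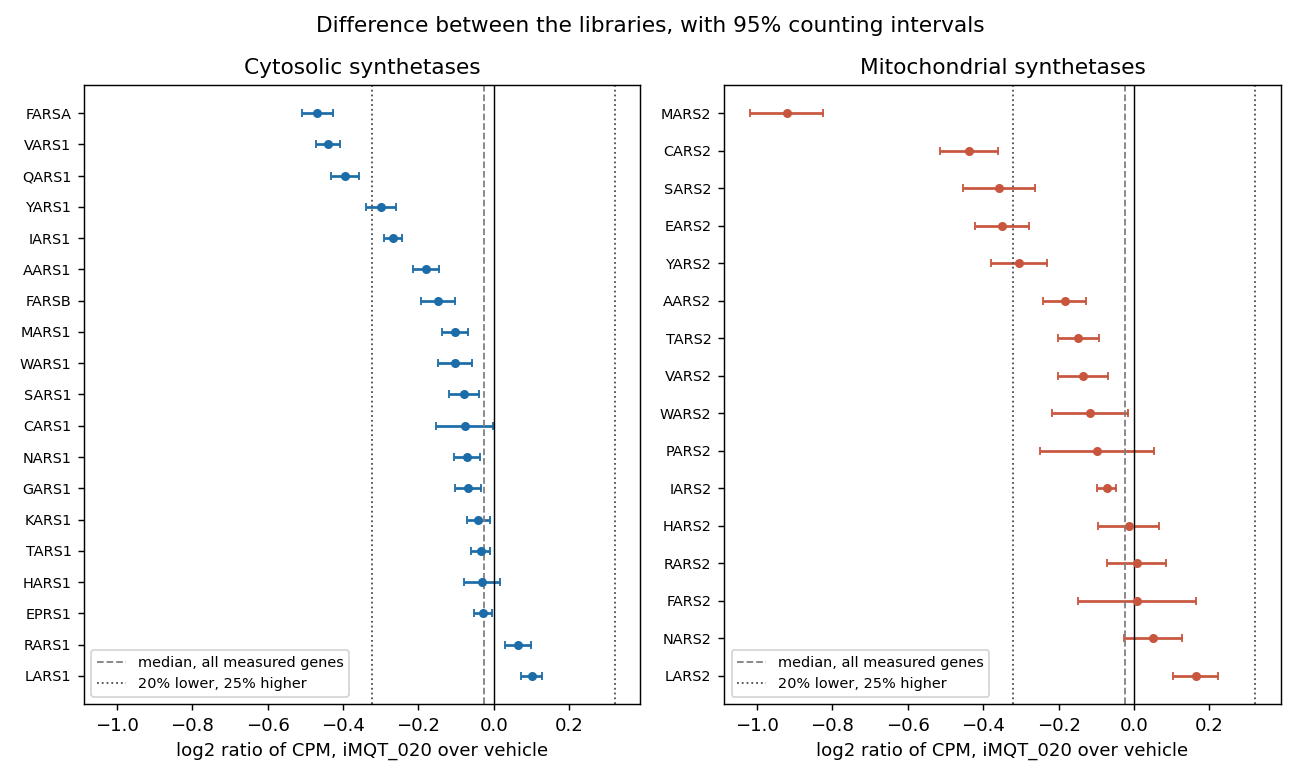
log2 ratio of CPM, iMQT_020 over vehicle, for each synthetase with its exact 95% counting interval; dashed lines mark the median of all measured genes and dotted lines mark 20% lower and 25% higher. MARS2 lies apart at −0.92, FARSA, VARS1, QARS1, CARS2, SARS2 and EARS2 lie between −0.47 and −0.35, and none reaches 25% higher.

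MARS2, which charges the mitochondrial methionine tRNA that both starts and extends mitochondrial proteins, had the lowest ratio. It had 2669 counts and 29.6 TPM in the vehicle library and 1247 counts and 16.1 TPM in the iMQT_020 library. On the log2 scale MARS2 stood at −0.92 (−1.02 to −0.82), 1.89-fold lower with iMQT_020. Of genes with at least 1000 counts, 1.33% had a lower ratio, and of all measured genes 3.92%. MARS2 lies on chromosome 2 from 197705369 to 197708395 (RefSeq, GRCh38.p14), has a transcript of 1 exon and overlaps no other annotated gene. The 250 bases that precede its start are shown because this member differed most; they hold an E-box, CACGTG, the site read by MYC and related factors, printed in capitals (chr2:197705119-197705368, plus strand).
MARS2 upstream: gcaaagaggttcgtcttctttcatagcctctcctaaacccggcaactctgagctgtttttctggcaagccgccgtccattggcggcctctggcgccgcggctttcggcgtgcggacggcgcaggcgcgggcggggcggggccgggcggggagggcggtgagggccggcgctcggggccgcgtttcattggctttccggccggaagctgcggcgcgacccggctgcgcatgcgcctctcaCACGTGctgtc

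The other mitochondrial members at least 20% lower were CARS2, SARS2 and EARS2. CARS2, the cysteine enzyme, had 3398 counts with vehicle and 2221 with iMQT_020 (60.2 and 44.2 TPM), a log2 ratio of −0.44 (−0.52 to −0.36). Its span on chromosome 13 overlaps ING1, which had 1011 and 974 counts and a ratio of 0.12. SARS2, the serine enzyme, had 2173 and 1500 counts (37.9 and 30.5 TPM), a ratio of −0.36 (−0.45 to −0.26). EARS2, which makes the misacylated glutamate precursor of mitochondrial glutaminyl-tRNA, had 3908 and 2714 counts (25.9 and 21.3 TPM) and a ratio of −0.35 (−0.42 to −0.28). EARS2 overlaps GGA2, which had 11283 and 9354 counts and a ratio of −0.09. Reads in overlapping spans cannot be assigned with certainty, because the strand setting of the counting is not stated. The intervals of SARS2 and EARS2 reach across the 20% line, and YARS2, just short of it at −0.31 (−0.38 to −0.23), is not separated from them.

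The other mitochondrial members had smaller differences, of both signs. AARS2, TARS2, VARS2 and WARS2, for alanine, threonine, valine and tryptophan, lay between −0.18 and −0.12, each with an interval below 0. IARS2, the most abundant, was at −0.07 (−0.10 to −0.05). For HARS2, RARS2, FARS2, NARS2 and PARS2 the interval held 0. FARS2 and PARS2 had the fewest counts of the family and the widest intervals: FARS2 had 712 and 634 counts and a ratio of 0.01 (−0.15 to 0.17), and PARS2 had 798 and 660 counts and a ratio of −0.10 (−0.25 to 0.05). LARS2, the leucine enzyme, was the highest of the 35, with 4631 counts and 33.0 TPM in the vehicle library, 4592 counts and 38.3 TPM in the iMQT_020 library, and a ratio of 0.16 (0.10 to 0.22), 1.12-fold higher.

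Among the cytosolic enzymes FARSA, VARS1 and QARS1 were at least 20% lower. FARSA, the catalytic subunit of phenylalanyl-tRNA synthetase, had 12712 counts with vehicle and 8136 with iMQT_020 (236 and 176 TPM), a log2 ratio of −0.47 (−0.51 to −0.43), 1.38-fold lower. Its partner FARSB, needed in equal number in the same tetramer, had 9357 and 7476 counts (96.5 and 87.9 TPM) and a ratio of −0.15 (−0.19 to −0.10). The FARSA mRNA was 2.44 times the FARSB level by TPM with vehicle and 2.0 times with iMQT_020. VARS1, for valine, had 21021 and 13720 counts (173 and 132 TPM), a ratio of −0.44 (−0.47 to −0.41). QARS1, the enzyme that loads glutamine onto cytosolic tRNA, had 14204 and 9568 counts (195 and 153 TPM), a ratio of −0.39 (−0.43 to −0.36), 1.31-fold lower. YARS1, for tyrosine, at −0.30 (−0.34 to −0.26) and IARS1, for isoleucine, at −0.27 (−0.29 to −0.24) came next, short of 20% lower.

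The remaining 14 cytosolic members lay between −0.18 and 0.10. AARS1, the alanine enzyme, was at −0.18 (−0.21 to −0.15) with 15421 and 12044 counts. LARS1, the leucine enzyme that also serves as a leucine sensor for mTORC1, had 20492 and 19451 counts (144 and 160 TPM) and was the highest of the group at 0.10 (0.07 to 0.13). RARS1, for arginine, was the other cytosolic member above 0, at 0.06 (0.03 to 0.10). The dual-compartment enzymes GARS1 and KARS1 were at −0.07 (−0.10 to −0.03) and −0.04 (−0.07 to −0.01). EPRS1, a single protein that carries both the glutamate and the proline enzyme, was at −0.03 (−0.05 to −0.00). By deposited TPM on the log2(value + 1) scale, KARS1, HARS1, TARS1 and EPRS1 were above 0, at 0.004, 0.009, 0.013 and 0.017. TPM ratios exceeded count ratios by 0.05 in the median of measured genes at 1 TPM or more, which is more than each of these values.

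The cytosolic enzymes EPRS1, IARS1, LARS1, MARS1, QARS1, RARS1 and KARS1 are known to assemble with 3 scaffold proteins into the multi-synthetase complex. Of these 7, 5 were below 0, beside 52.7% of all measured genes, and 1, QARS1, was at least 20% lower. The median of the 7 was −0.04. The scaffold genes AIMP1, AIMP2 and EEF1E1 were at −0.13, −0.03 and 0.02. The 12 cytosolic members outside the complex were all below 0 by scaled counts, with a median of −0.09. Some lay close to 0: HARS1 was at −0.03 with an interval that held 0 (−0.08 to 0.02). Of the 12, HARS1 and TARS1 were above 0 by deposited TPM, by less than the general offset of 0.05 between TPM and count ratios. CARS1, HARS1 and SARS1 were above 0 after the centring on GC content and length described below. By catalytic fold, the class I enzymes (19 members of both compartments, EPRS1 counted here) had a median of −0.12 and the class II enzymes (16 members) −0.07, with 5 and 2 members at least 20% lower. Of all measured genes 21.8% were at least 20% lower.

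Of the members, 13 belong to the cytosolic enzymes that ATF4 is known to induce (AARS1, CARS1, EPRS1, GARS1, IARS1, LARS1, MARS1, NARS1, SARS1, TARS1, VARS1, WARS1 and YARS1). Their median was −0.08, with 12 of 13 below 0, 1 at least 20% lower (VARS1) and 0 at least 25% higher. The other 6 cytosolic members (FARSA, FARSB, HARS1, KARS1, QARS1 and RARS1) had a median of −0.09, with 5 below 0 and 2 at least 20% lower. Beside both lists, 52.7% of all measured genes were below 0, 21.8% were at least 20% lower and 17.4% at least 25% higher. The MARS1 span overlaps DDIT3, itself a gene of this response, which had 276 counts with vehicle and 300 with iMQT_020 and a ratio of 0.30.

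Promoter sequences from RefSeq (GRCh38.p14), from 250 bases before to 50 bases after each annotated start, were found for 30 of the 35 members, 16 cytosolic and 14 mitochondrial; AARS2, LARS1, VARS1, VARS2 and YARS1 had none in the table used. TGATGCAA, the composite element read by ATF4 with C/EBP proteins, was searched on both strands. It was present for 6 of the 16 cytosolic members and 0 of the 14 mitochondrial members, beside 1.08% of 27305 genes with a promoter (0.866% of promoters). The 6 are shown because they mark the members whose start regions carry the amino acid response letters; capitals mark the element, which reads TTGCATCA where it lies on the other strand.
AARS1: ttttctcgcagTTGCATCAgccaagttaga
CARS1: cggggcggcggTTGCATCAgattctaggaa
IARS1: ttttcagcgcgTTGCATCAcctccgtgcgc
MARS1: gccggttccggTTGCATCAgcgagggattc
NARS1: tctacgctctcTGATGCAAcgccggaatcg
TARS1: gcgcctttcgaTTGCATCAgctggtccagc

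These windows lie at chr16:70289675-70289704 (AARS1, minus strand), chr11:3057407-3057436 (CARS1, minus), chr9:92293692-92293721 (IARS1, minus), chr12:57488053-57488082 (MARS1, plus), chr18:57621804-57621833 (NARS1, minus) and chr5:33440956-33440985 (TARS1, plus). All 6 belong to the list of known ATF4 targets above, and their ratios ran from −0.27 (IARS1) to −0.03 (TARS1), with a median of −0.09 beside −0.07 for the 10 cytosolic members without the element. With the sixth base left free, TGATGNAA, the search also found GARS1 and, in the mitochondrial group, YARS2, beside 4.46% of all genes. A match describes letters in the window and does not show that a factor was bound.

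The E-box CACGTG, which reads the same on both strands, was found for 3 of the 14 mitochondrial members and 1 of the 16 cytosolic members, beside 8.77% of all genes. The mitochondrial members were MARS2, CARS2 and EARS2, and all 3 were among the 4 mitochondrial members at least 20% lower. Of the 11 mitochondrial members without the E-box 1, SARS2, was at least 20% lower, and their median was −0.07. The cytosolic member was IARS1, which carries both elements without overlap. The motif was searched with the ratios already known, so the coincidence is a description of 4 genes. The windows around the E-box, in capitals, are given for comparison.
MARS2: atgcgcctctcaCACGTGctgtcagaacgc
CARS2: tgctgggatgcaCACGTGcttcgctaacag
EARS2: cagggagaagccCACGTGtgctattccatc
IARS1: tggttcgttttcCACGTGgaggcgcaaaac

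They lie at chr2:197705346-197705375 (MARS2, plus strand), chr13:110706501-110706530 (CARS2, minus), chr16:23557348-23557377 (EARS2, minus) and chr9:92293866-92293895 (IARS1, minus).

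For 13 amino acids the members held 1 cytosolic and 1 mitochondrial enzyme, which allowed the compartments to be compared amino acid by amino acid. The cytosolic mRNA was the more abundant by TPM for 11 of the 13 in both libraries, with a median ratio of 4.36 with vehicle and 3.89 with iMQT_020. The exceptions were cysteine, where CARS1 was at 0.635 of the CARS2 level with vehicle and 0.830 with iMQT_020, and isoleucine, where IARS1 was at 0.958 and 0.834 of IARS2. The methionine pair shifted most: MARS1 was 6.30 times MARS2 with vehicle and 11.1 times with iMQT_020, with MARS1 itself at −0.10 (−0.14 to −0.07).

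Both enzymes of a pair were below 0 for 10 amino acids and above 0 for leucine and arginine. Of all measured genes, 52.7% were below 0. For asparagine the signs were opposite, with NARS1 at −0.07 and NARS2 at 0.05. The intervals of NARS2 (−0.03 to 0.13), RARS2 (−0.07 to 0.09), HARS1 and HARS2 held 0, so the signs of these enzymes are not settled. LARS1 was at −0.01 after the centring on GC content and length described below. In 4 pairs, alanine, histidine, tryptophan and tyrosine, the log2 ratios of the compartments lay within 0.05 of each other, for example −0.30 for YARS1 and −0.31 for YARS2. Over the 13 pairs, which share both libraries, Spearman's rho was 0.52 and Pearson's r 0.21; without methionine, r was 0.38. HARS1 and HARS2, both for histidine, lie head to head on chromosome 5 with 84 bases between their starts, and had ratios of −0.03 and −0.01. The bases between them (chr5:140691371-140691454, plus strand, RefSeq GRCh38.p14) are printed because the pair shares them as upstream sequence.
HARS1-HARS2: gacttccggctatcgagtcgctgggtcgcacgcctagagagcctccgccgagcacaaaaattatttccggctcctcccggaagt

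**Figure D3:**
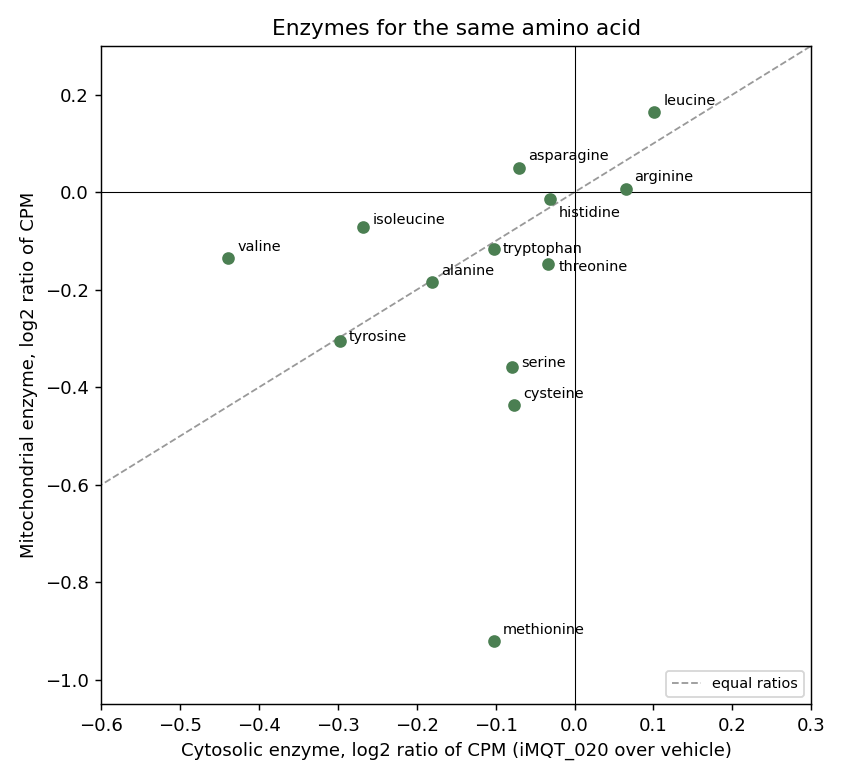
log2 ratio of CPM, iMQT_020 over vehicle, of the cytosolic (horizontal) and mitochondrial (vertical) enzyme for each of 13 amino acids; the dashed line marks equal ratios. Alanine, histidine, tryptophan and tyrosine lie near the line, methionine lies far below it through MARS2, and valine lies above it through VARS1.

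Genes that work beside the synthetases were mixed. Of 18 accessory genes for tRNA maturation, proofreading, amidation, delivery and sensing, 11 were below 0 and 7 above, 2 were at least 20% lower, 0 were at least 25% higher, and the median was −0.06. Of all measured genes, 52.7% were below 0, 21.8% were at least 20% lower and 17.4% at least 25% higher. The subunits of the mitochondrial amidotransferase that completes glutaminyl-tRNA were at 0.07 (QRSL1), −0.11 (GATB) and −0.07 (GATC), beside −0.35 for EARS2, which supplies their substrate. The accessory genes furthest from 0 were TUFM, the elongation factor that carries charged tRNA to the mitochondrial ribosome, at −0.43 (−0.46 to −0.40) with 24338 and 16005 counts, and TRNT1, the enzyme that adds the CCA end to which the amino acid is joined, at −0.38 (−0.48 to −0.28) with 2051 and 1397 counts. By the log2 ratio of deposited TPM, TUFM was at −0.38 and TRNT1 at −0.28, the latter short of 20% lower. The span of TRNT1 overlaps CRBN. After the centring on GC content and length described below, TUFM was at −0.23, short of 20% lower, and TRNT1 at −0.46. TARS3, a synthetase that is not a member, was at 0.07.

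The ratio moved with base composition and with transcript length. Over 13853 measured genes its median was 0.13 in the first and −0.31 in the last of 10 bins ordered by rising GC content (Spearman's rho −0.34 across genes). Across the same genes rho with transcript length was 0.32, and over the 35 synthetases it was −0.03. Over the 35 synthetases rho with GC content was −0.54 as a description. The members with the highest GC content were VARS1 (61.7%), SARS2 (61.4%) and FARSA (61.3%), all among the 7 that were at least 20% lower, while MARS2 (48.4%) and EARS2 (48.9%) lay below the family's median. After the ratio was centred on genes of like GC content and transcript length (10 bins of each), MARS2 was at −0.91, EARS2 at −0.36, VARS1 at −0.34, QARS1 at −0.29, CARS2 at −0.24, FARSA at −0.23 and SARS2 at −0.12. MARS2, EARS2 and VARS1 were then still at least 20% lower, joined by FARSB (−0.37) and IARS1 (−0.33). The centred value of FARSB rests on a canonical transcript of 6761 bases, whereas its deposited counts and FPKM imply about 3517. This centring removes GC content and length together, and the part of either in the ratios was not tested beyond it.

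**Figure D4:**
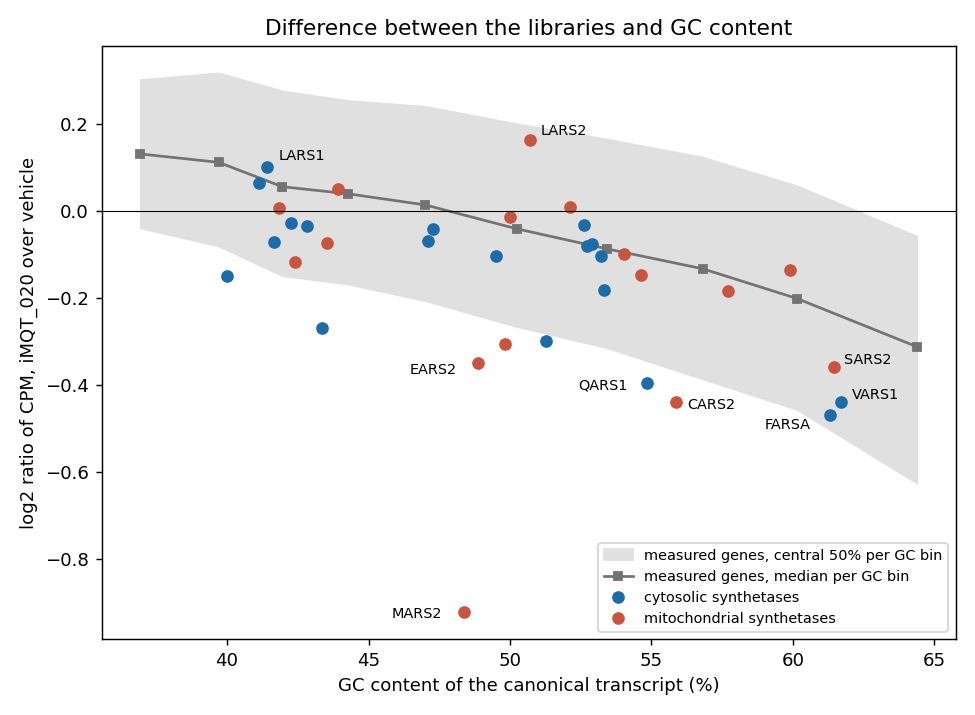
log2 ratio of CPM, iMQT_020 over vehicle, against GC content of the canonical transcript for the 35 synthetases (points), with the median and central 50% of measured genes in 10 GC bins (grey). SARS2, VARS1 and FARSA sit at high GC within the grey band, in its lower part, and MARS2 lies far below it at 48.4% GC.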

How the data were processed

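Total RNA was isolated with TRIzol. HISAT2 with Bowtie2 aligned the reads to GRCh38, per the labels' protocols, and the submitters' processing notes also list StringTie and edgeR. The counting step and strand setting were not given in the sources used here. For each gene the authors deposited an estimated count, a whole number, together with FPKM and TPM values, which the authors scaled by transcript length and depth. A shorter deposited table repeats the FPKM of 20787 genes.

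Counts were scaled by TMM over all gene rows (edgeR 4.0.16, R 4.3.3; factors 0.998 and 1.00). The log2 ratio used a prior count of 0.5. Exact Clopper-Pearson 95% intervals treat estimated counts as reads and cover counting error only. With 1 library per treatment no p-value was computed. Gene spans came from RefSeq (GRCh38.p14), GC content and length from GENCODE 44 canonical transcripts, for 93.6% of measured genes. Python 3.11.15 with pandas 2.3.3 and scipy 1.17.1 was used, and the calculation was tested on simulated counts. All members are described, those with the largest ratios or levels in full; of the accessory genes, the complex scaffolds, the amidotransferase subunits and the 2 with the largest ratios are named, and the 5 highest were added after their values were seen; some related genes are not reported here. The members, lists, motifs and 20% rule were chosen with earlier results of these data known. Alternatives were other scalings (median of ratios of DESeq2 1.42.0, total counts, upper quartile), count minimums of 10, 200 or none, a prior count of 5, deposited FPKM and TPM on log2(value + 1) and centring on GC content and length.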

Additional observations from a re-analysis of the deposited data

How the results depend on the processing

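The cytosolic and mitochondrial medians stayed inside their intervals under all 12 alternatives. Under each of them 0 synthetases were 2-fold apart and 0 were at least 25% higher. The sign of the ratio was kept throughout by 23 of 35 members. Some alternatives could not change any member's ratio. Every member had at least 634 counts, so the other count minimums left all ratios, medians and numbers of members as they were. Leaving out members that overlap another gene reused the main ratios for the rest. The kept signs therefore rest on the other alternatives only. The number of mitochondrial members at least 20% lower, 4 with scaled counts, was 2 with deposited TPM and 2 after centring on GC content and length. Among the 15 members that overlap no other gene, a set chosen after the data were seen, it was 2 and the cytosolic number, otherwise 3, was 1, since fewer genes remain. With deposited TPM the members lost were EARS2 and SARS2, and with deposited FPKM EARS2 was lost. On that scale, which adds 1 before the log, EARS2 was at −0.27 and SARS2 at −0.30 by TPM, and EARS2 at −0.30 by FPKM. Without the added 1, their log2 TPM ratios were −0.28 and −0.31. TPM ratios exceeded count ratios by 0.05 in the median of measured genes at 1 TPM or more. The parts of the added 1 and of this offset in the losses were not tested. After centring, 3 of the 7 members called with scaled counts remained. MARS2 ran from −0.93 to −0.83 over the alternatives. Scaling by TMM over measured genes only, also chosen later, changed none of the 7 calls. No paired analysis was possible because each treatment has 1 library, and no library could be left out for the same reason. Depth limits PARS2 and FARS2 most.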

Other observations

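The accessory genes with the highest ratios were SEPSECS, MTFMT, PSTK, GCN1 and EIF2AK4. SEPSECS, which completes selenocysteinyl-tRNA, had 923 counts with vehicle and 967 with iMQT_020, a log2 ratio of 0.24 (0.11 to 0.38), and PSTK, the kinase that acts before it, had 418 and 430 counts and a ratio of 0.22 (0.02 to 0.41). MTFMT, which formylates the methionyl-tRNA made by MARS2, had 1190 and 1238 counts and a ratio of 0.23 (0.12 to 0.35), opposite in sign to MARS2. SARS1, which loads the selenocysteine tRNA with serine before PSTK acts, was at −0.08. GCN1 and EIF2AK4, the sensor of uncharged tRNA, were at 0.21 and 0.16. After centring on GC content and length, SEPSECS was at 0.05 and EIF2AK4 at 0.03. MTFMT was then at 0.16, GCN1 at 0.19 and PSTK at 0.31. These genes were picked after their values were seen, and none was 25% higher.

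The log2 ratio by deposited TPM exceeded that by counts by 0.05 in the median of the 35 synthetases and also in the median of 13539 measured genes at 1 TPM or more in both libraries. The members furthest from this offset were RARS2, with 41 RefSeq transcripts in the deposited table, at 0.13, FARS2, with 18, at 0.11, NARS2, with 10, at 0.09, and CARS2, with 22, at −0.01. Other members with many transcripts lay nearer to it: CARS1, with 23, at 0.02, IARS1, with 22, at 0.04, and WARS1, with 13, at 0.07. The 4 furthest members lay inside the central 95% of measured genes (−0.09 to 0.18). WARS2-AS1, antisense to WARS2, had 607 counts with vehicle and 735 with iMQT_020, a ratio of 0.45, while WARS2 was at −0.12 (−0.22 to −0.02).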
